A study of Mus musculus with 28 samples.

Results

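In all, 10 genes of the intestinal brush border were followed through 14 pairs of mouse colon organoid cultures: the hydrolases Sis, Alpi, Mep1a and Dpep1, and the structural genes Vil1, Ezr, Myo1a, Cdhr2, Cdhr5 and Ush1c. They were chosen by name, and all 10 were among the 13519 genes counted. The brush border is the carpet of microvilli on the apical face of mature enterocytes and colonocytes. Actin bundles held together by villin and tied to the membrane by ezrin and myosin-1a give each microvillus its shape, and the protocadherins Cdhr2 and Cdhr5, anchored through the scaffold harmonin (Ush1c), link neighbouring tips. Enzymes exposed on this membrane, such as sucrase-isomaltase, alkaline phosphatase, meprin and dipeptidase, complete the digestion of sugars, phosphate esters and peptides.

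Bulk RNA-seq was performed on organoids grown from colon epithelium of C57BL/6N mice. Every donor carried VillinCreERT2 and 2 floxed Apc alleles: nothing else in AC, Trp53LSL-R172H/+ in addition in PAC, BraffloxV600E/+ in addition in BAC, and both in BPAC. Samples received 3.5 µM 4-hydroxytamoxifen (4-HT) or ethanol (EtOH) as control. 4-HT activates CreERT2 and so deletes Apc and switches on p53 R172H or BRAF V600E where the allele is present. An EtOH and a 4-HT sample of a donor with the same number were taken as 1 culture. This pairing is not shown for PAC cultures 1 and 2. Exposure lasted 24 hours, and RNA was isolated 3 days later. AC had 1 donor, the other genotypes 2 each, and each donor gave 2 cultures (duplicates 1 and 2), so there were 2 AC cultures and 4 of each other genotype, 28 samples in all. This follows the labels: the study's methods describe more than one donor mouse for every genotype, and a legend speaks of distinct passages, which the labels do not tie to the duplicates. In PAC, BAC and BPAC, cultures 1 and 3 came from donor 1 and cultures 2 and 4 from donor 2, cultures 1 and 2 being duplicate 1. Cultures of 1 donor are not separate animals, so the p-values below describe the spread between cultures of 7 mice. EtOH samples held the same alleles without induced recombination. Because Cre was driven by the Villin promoter, the recombined cells were those in which the promoter of Vil1, itself one of the genes studied, had been active.

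Total counts ranged from 20577276 to 40068718 per sample, and the 4-HT samples of duplicate 1 with the Braf allele were the deepest (37438687 to 40068718). The 4-HT samples of PAC cultures 1 and 2 held both the female transcript Xist (27.5 and 23.9 CPM, counts scaled to a common total) and Y-linked transcripts (60.1 and 58.0 CPM over 4 genes), whereas the EtOH samples of the same donors held mainly one or the other. These 4-HT samples were also the most alike of all pairs within a group (chi-square per gene 2.36, against 8.38 to 282 for the other pairs), though not within sampling noise, and entered as 2 samples. These 2 samples therefore do not match separate donors of their labels, and the PAC means, counts and tests of members and further brush border genes are also given without both cultures. Trp53 stood at 97.9 to 121.6 CPM in EtOH samples of AC and BAC and at 51.4 to 66.1 CPM in those of PAC and BPAC, and rose with 4-HT by 0.74 (AC), 0.97 (BAC), 1.51 (PAC) and 1.84 (BPAC) on the log2 scale. Gene-level counts of Apc and Braf include exons outside the recombined parts and do not check the labels: Apc rose by 0.67 to 0.92, and Braf changed by -0.30 to 0.07. The summed CPM of 8 general epithelial markers was 16950 to 27430 with EtOH and 15380 to 20950 with 4-HT. Of 10 stromal and immune markers listed, the 3 among the genes counted summed to 3.32 to 8.52 CPM, and the other 7, Col1a1 and Ptprc among them, have no value here.

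The promoter windows of 5 members are shown because these genes mark the range of the response described below: Sis and Mep1a fell furthest with the Braf allele, Alpi is a hydrolase without a detected Braf difference, Cdhr5 is the structural gene with the largest Braf difference, and Ezr passed no test. Each window runs from 250 bases before to 50 after the RefSeq transcription start (GRCm38.p6) and is written 5′ to 3′ along the gene. Capitals mark the letters searched, on either strand: the HNF4 motif CAAAGTCCA, the CDX2 motifs TTTATG and TTTATT, the AP-1 motif TGANTCA, the TCF/LEF motif TCAAAG and the GATA motif AGATAA.
Sis (chr3:72967814-72968113, minus strand): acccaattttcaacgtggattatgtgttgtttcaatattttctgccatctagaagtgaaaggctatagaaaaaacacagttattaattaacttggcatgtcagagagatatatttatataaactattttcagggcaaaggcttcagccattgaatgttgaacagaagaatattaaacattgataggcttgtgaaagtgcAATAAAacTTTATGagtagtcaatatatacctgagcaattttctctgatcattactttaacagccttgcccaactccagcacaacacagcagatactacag
Mep1a (chr17:43502724-43503023, minus strand): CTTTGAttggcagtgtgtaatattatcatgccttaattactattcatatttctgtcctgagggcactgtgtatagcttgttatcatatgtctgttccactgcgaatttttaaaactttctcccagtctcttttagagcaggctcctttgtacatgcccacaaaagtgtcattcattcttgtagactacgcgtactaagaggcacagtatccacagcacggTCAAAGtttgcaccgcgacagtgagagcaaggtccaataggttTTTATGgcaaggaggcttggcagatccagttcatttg
Alpi (chr1:87101557-87101856, minus strand): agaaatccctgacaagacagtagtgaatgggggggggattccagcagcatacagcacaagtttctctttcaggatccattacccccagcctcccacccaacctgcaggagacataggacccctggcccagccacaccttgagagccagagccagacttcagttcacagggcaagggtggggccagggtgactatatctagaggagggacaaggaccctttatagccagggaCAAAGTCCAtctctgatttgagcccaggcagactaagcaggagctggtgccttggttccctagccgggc
Cdhr5 (chr7:141276737-141277036, minus strand): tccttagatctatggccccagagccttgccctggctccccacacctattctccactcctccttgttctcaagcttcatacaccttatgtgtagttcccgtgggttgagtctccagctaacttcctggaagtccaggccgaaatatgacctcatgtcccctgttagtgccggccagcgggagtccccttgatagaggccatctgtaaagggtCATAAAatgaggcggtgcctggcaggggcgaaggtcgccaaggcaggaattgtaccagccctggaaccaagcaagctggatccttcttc
Ezr (chr17:6782731-6783030, minus strand): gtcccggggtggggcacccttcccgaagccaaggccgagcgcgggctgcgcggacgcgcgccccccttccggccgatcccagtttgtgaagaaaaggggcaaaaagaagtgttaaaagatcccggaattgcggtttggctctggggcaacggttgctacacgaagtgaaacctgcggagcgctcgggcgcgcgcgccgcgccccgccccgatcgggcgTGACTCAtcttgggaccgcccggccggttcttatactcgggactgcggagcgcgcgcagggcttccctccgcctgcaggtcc
In the Sis window 2 CDX2 matches lie next to each other, starting at -51 and -43 relative to the start, and Cdhr5 holds one at -39. CDX2 is a homeobox factor of the intestinal epithelium. Its letters occur in 27.6% of the 32851 promoters in the table, and in 4 of the 10 members (Sis, Cdhr5, Dpep1 and Mep1a). The HNF4 letters, found in 0.475% of promoters, occur among the members in Alpi alone, at -19. AP-1 letters, present in 7.81% of promoters, were found in Ezr alone, at -32. TCF/LEF letters (16% of promoters) occur in Dpep1 and Mep1a, and GATA letters (11.2%) in none of the 10. A match of letters is a description of the window and does not show binding.

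Per kilobase of exon, which allows levels of different genes to be compared, the 6 structural genes together made up most of the members' transcripts in control organoids, although Alpi lay above Myo1a and Ush1c, and Dpep1 above Ush1c. Median levels over the 14 EtOH samples were 597 CPM per kb for Cdhr5, 369.5 for Ezr, 338 for Cdhr2, 276 for Vil1, 169 for Myo1a and 70.9 for Ush1c. The hydrolases reached 175 CPM per kb for Alpi, 107 for Dpep1, 50.7 for Mep1a and 7.82 for Sis. Neighbours in this order overlapped in their sample ranges for Ezr (294 to 539) and Cdhr2 (289.6 to 509), for example, whereas Sis, with 4.57 to 19.8, lay below every other member in all EtOH samples. Hydrolases made up 14.2% ± 1.8 of the summed per-kilobase level of the 10 genes in AC (SD, n = 2). In PAC, BAC and BPAC the share was 15.5% ± 2.5, 15.7% ± 1.1 and 16.2% ± 1.0 (SD, n = 4 each). In the EtOH samples no member passed the test of BAC and BPAC against AC and PAC (edgeR quasi-likelihood test, lowest adjusted p = 0.369, and none by limma-voom or DESeq2), against 0.0296% of all genes. At an unadjusted p under 0.05 there was none either, where 7.85% of all genes were lower and 9.31% higher. The differences lay between -0.10 (Cdhr5) and 0.28 (Dpep1) on the log2 scale.

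**Figure D1:**
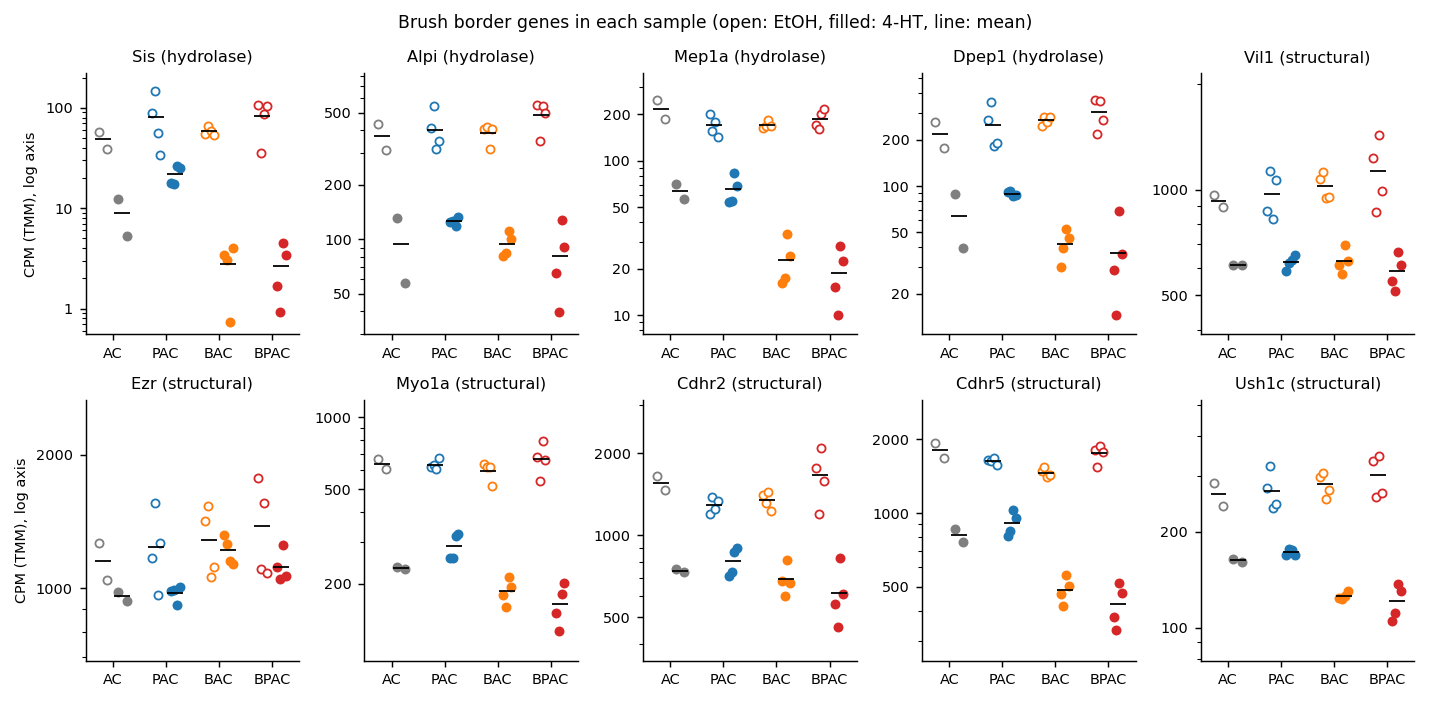
CPM (log axis, each panel with its own range) of the 10 brush border genes in every sample, by genotype, with open circles for EtOH, filled circles for 4-HT and a line at the mean. In every gene but Ezr all 14 4-HT samples lie below all 14 EtOH samples, and Ezr overlaps between treatments in PAC, BAC and BPAC.

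With 4-HT, 9 of the 10 genes were lower than with EtOH in at least 3 of the 4 genotypes, and the hydrolases fell further than the structural genes. No samples without floxed Apc received 4-HT here, so exposure to 4-HT, Cre activity and Apc loss cannot be told apart. In AC, where Apc was the only floxed gene, 7 members fell and none rose, among them the hydrolases Alpi (-1.99 ± 0.38, log2 change ± SE, adjusted p = 0.00124), Mep1a (-1.77 ± 0.33, adjusted p = 0.00119) and Dpep1 (-1.76 ± 0.45, adjusted p = 0.00941). Of the structural genes Myo1a (-1.45 ± 0.18), Cdhr5 (-1.16 ± 0.17), Cdhr2 (-1.07 ± 0.21) and Ush1c (-0.69 ± 0.15) fell. Sis had the lowest estimate, -2.44 ± 0.64, but its adjusted p of 0.0112 missed the threshold of 0.01 (edgeR quasi-likelihood test, Benjamini-Hochberg over all genes), as did that of Vil1 (-0.61 ± 0.18, adjusted p = 0.0193). With culture as a block both passed (adjusted p = 0.00232 and 0.00469), and with donor counts summed Sis did (adjusted p = 0.00201) and Vil1 did not (adjusted p = 0.084). The share of all genes called lower in AC was 4.25%. The AC calls need both cultures: a fit without either leaves 1 AC culture, whose spread is then assumed to be that of the other groups. Calls in such a fit cannot be set against the 4.25%, which belongs to the fit with all samples. Over the 20 fits that leave out a culture or donor, the log2 change in AC was -2.86 to -2.22 for Sis and -0.37 to -0.16 for Ezr. Dpep1 lay closest to the threshold: it passed in 4 of the 14 fits that leave out 1 culture of any genotype, and passed neither with library size alone (adjusted p = 0.0135) nor with donor counts summed (adjusted p = 0.0141). Cdhr2 and Ush1c also missed it with donor counts summed (adjusted p = 0.0157 and 0.0119). Ush1c missed it with library size alone as well.

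In PAC, BAC and BPAC the same 9 members fell, every one but Ezr, where 12.2%, 21.5% and 23.0% of all genes were called lower. With donor counts summed, Vil1 and Cdhr2 no longer passed in PAC (adjusted p = 0.0111 and 0.0105). Cdhr2 did not pass in PAC with library size alone either. With PAC cultures 1 and 2 summed and counted as 1 culture, 6 passed against 6.30% of all genes, and Sis, Cdhr2 and Dpep1 did not (adjusted p = 0.0231, 0.0117 and 0.0103). In PAC the changes ran from -1.91 (Sis) to -0.64 (Ush1c), in BAC from -4.37 (Sis) to -0.70 (Vil1) and in BPAC from -5.01 (Sis) to -0.95 (Vil1). Without the 2 of 4 PAC cultures with mixed sex transcripts, 1 of 10 passed in PAC (Myo1a, -0.997), or 5 with culture as a block (Myo1a, Cdhr2, Cdhr5, Alpi and Mep1a), where 0.192% and 3.71% of all genes were called lower in these fits. The log2 changes that did not pass were then -0.80 for Sis, -1.40 for Alpi, -1.10 for Dpep1, -1.08 for Mep1a, -0.71 for Cdhr5, -0.56 for Vil1, -0.55 for Cdhr2 and -0.48 for Ush1c. Leaving out PAC donor 2 left 2 calls (Myo1a and Cdhr5). In bulk organoids, fewer cells of a type and less RNA per cell cannot be told apart. The summed CPM of 8 colonocyte markers moved in the same direction as the members, from 15450 to 25340 in EtOH samples to 2995 to 10920 in 4-HT samples, and 4, 5, 7 and 8 of the 8 fell in AC, PAC, BAC and BPAC. The summed CPM of 5 proliferation genes moved the other way, from 441 to 598.5 with EtOH to 702 to 768 with 4-HT in AC and PAC and 972 to 1054 in BAC and BPAC. Their part in the members' change was not tested.

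**Figure D2:**
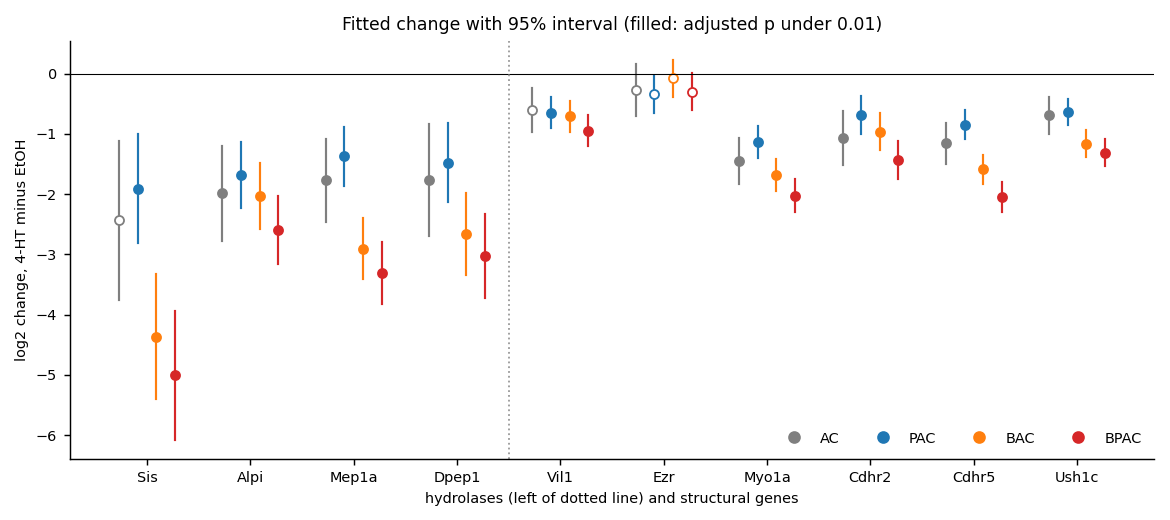
Fitted log2 change (4-HT minus EtOH) of each member in the 4 genotypes with its 95% interval, hydrolases to the left and structural genes to the right, filled where the adjusted p was under 0.01. Sis runs from -1.91 in PAC to -5.01 in BPAC, and the 4 estimates of Ezr lie between -0.34 and -0.08.

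Sis encodes sucrase-isomaltase, which splits sucrose and starch fragments (ENSMUSG00000027790, chr3:72888557-72967863, minus strand). Its CPM in AC cultures 1 and 2 was 58.0 and 38.8 with EtOH and 12.5 and 5.32 with 4-HT. In PAC cultures 1 to 4 it went from 88.3, 147.4, 56.4 and 34.1 to 17.8, 17.4, 26.5 and 25.3. Both PAC cultures of duplicate 2 thus kept more Sis than those of duplicate 1, and the log2 changes of the 4 cultures spread from -3.08 to -0.43. In BAC the CPM was 55.4, 65.3, 58.7 and 53.6 with EtOH and 3.42, 3.05, 0.735 and 3.97 with 4-HT. In BPAC it was 106.1, 35.3, 86.0 and 103.1 with EtOH and 1.67, 0.928, 4.47 and 3.45 with 4-HT. All 8 4-HT samples with the Braf allele lay below all 6 without it, although counts were low (21 in BAC culture 3, 39 to 134 in the other 7). Here and for the members below, the share of all genes whose 4-HT levels separate in this way was not counted. Between 1.25% and 7.41% of the EtOH level was left with the Braf allele and between 11.8% and 74.2% without it.

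Mep1a, the alpha subunit of the metalloprotease meprin (ENSMUSG00000023914, chr17:43474324-43502812, minus strand), varied less between cultures. In AC its CPM was 245.9 and 186 with EtOH and 70.5 and 56.5 with 4-HT. In PAC it went from 201, 156, 179 and 143 to 54.3, 55.15, 83.55 and 68.9. BAC samples held 163.5, 169, 184 and 168.5 with EtOH and 16.3, 17.5, 33.5 and 24.4 with 4-HT. BPAC samples held 171, 161, 201 and 215.5 with EtOH and 15.3, 10.04, 28.1 and 22.4 with 4-HT. The EtOH samples with the Braf allele (161 to 215.5) lay within the range of those without it (143 to 245.9), although all AC samples lay above all BAC samples, while every 4-HT sample with the Braf allele was below every one without.

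Dpep1, a membrane dipeptidase (ENSMUSG00000019278, chr8:123186242-123201812, plus strand), had EtOH levels of 176 to 352.5 CPM without the Braf allele (median 227, n = 6) and 218 to 359.6 with it (median 273.5, n = 8). With 4-HT the levels were 39.55, 88.5 and 92.5 (lowest, median, highest) without the allele and 14.5, 37.8 and 68.8 with it. The 4-HT levels overlapped, since AC culture 2 lay below 3 samples with the allele, whereas the log2 changes did not, at -2.15 to -1.08 without and -3.90 to -2.31 with the allele. Alpi, intestinal alkaline phosphatase (ENSMUSG00000079440, chr1:87098002-87101606, minus strand), ended at 57.3, 125 and 132 CPM without the allele and at 39.7, 87.3 and 128 with it, and both levels and changes overlapped. Alpi lies beside the related genes Akp3 and Alppl2, and the counting could split reads between such copies, so its values are less certain.

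Cdhr5, a protocadherin of the microvillus tip (ENSMUSG00000025497, chr7:141269083-141276786, minus strand), separated the genotypes most clearly among structural genes. With EtOH it stood at 1567, 1659 and 1937 CPM (lowest, median, highest) in the 6 samples without the Braf allele and at 1404, 1538 and 1879 in the 8 with it. With 4-HT the values were 760.4, 853 and 1028 without and 333, 470.2 and 559.8 with the allele, and no sample of one set reached the other. Ush1c, the harmonin scaffold (ENSMUSG00000030838, chr7:46195350-46238503, minus strand), fell from a median of 259 to 169.6 CPM without the allele and from 284 to 125 with it. Its 4-HT samples did not overlap either, at 161 to 177 and 105 to 137.5 CPM.

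Myo1a, a motor that ties actin to the microvillus membrane (ENSMUSG00000025401, chr10:127705170-127720940, plus strand), had the most negative estimate of the structural genes in AC, PAC and BAC. Its 4-HT levels were 231 to 323 CPM without the allele and 127 to 213 with it, which do not overlap, while the log2 changes did, at -1.51 to -0.93 and -2.18 to -1.40. The protocadherin Cdhr2 (ENSMUSG00000034918, chr13:54701461-54736662, plus strand) reached 709 to 903 and 463 to 826 CPM, and villin, Vil1 (ENSMUSG00000026175, chr1:74409376-74435559, plus strand), 588 to 651 and 516.5 to 694 CPM. Both overlapped between genotypes with and without the allele.

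Ezrin, encoded by Ezr (ENSMUSG00000052397, chr17:6738041-6782784, minus strand), links actin filaments to the plasma membrane in many epithelia and passed the test in no genotype. Its log2 changes in AC, PAC, BAC and BPAC were -0.27 ± 0.21, -0.34 ± 0.15, -0.08 ± 0.15 and -0.30 ± 0.15 (adjusted p = 0.421, 0.0736, 0.6904 and 0.0882). It was lower with 4-HT in 12 of 14 cultures, where each of the other 9 members was lower in 14 of 14. It also had the smallest fall, or a rise, in each of the 14 cultures. All 8 4-HT samples with the Braf allele (1048 to 1322 CPM) lay above all 6 without it (917 to 1008 CPM). The EtOH levels of Ezr (1061 to 1774 and 967 to 1556 CPM) and its log2 changes overlapped. The genes of Vil1 and Ezr overlap those of Usp37 and Sytl3, and whether counting used strand is not given in the sources used here.

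The hydrolase change and the structural change were averaged within each culture, over 4 and 6 genes (log2 CPM, prior count 2). The hydrolase mean was -2.06 ± 0.33 for AC (SD, n = 2), -1.55 ± 0.55 for PAC, -3.06 ± 0.19 for BAC and -3.58 ± 0.56 for BPAC (SD, n = 4 each). The structural mean was -0.87 ± 0.10, -0.71 ± 0.17, -1.03 ± 0.19 and -1.34 ± 0.20 in the same order. In every one of the 14 cultures the hydrolases fell further than the structural genes. The difference, hydrolase minus structural, amounted to -1.18 ± 0.42 for AC, -0.84 ± 0.41 for PAC, -2.04 ± 0.17 for BAC and -2.24 ± 0.52 for BPAC. Its values were -1.48 to -0.35 in the 6 cultures without the Braf allele and -2.76 to -1.54 in the 8 with it, so the sets did not overlap, and no test was made because the genes were chosen with earlier results known. This separation rested on Sis: without it the values were -1.30 to -0.54 and -2.39 to -1.08, which overlap. Without PAC cultures 1 and 2 the PAC means were -1.08 for the hydrolases, -0.58 for the structural genes and -0.50 for the difference.

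Single genes crossed the grouping in a few cultures. Dpep1 and Mep1a were among the 4 members with the largest falls in 14 of 14 cultures, Sis in 13 and Alpi in 12, and Myo1a took the place in the remaining 3. Sis had the largest fall in 12 cultures and Alpi in 2. The hydrolase share of the summed per-kilobase level with 4-HT was 7.48% ± 3.00 for AC (SD, n = 2), 9.06% ± 0.29 for PAC, 6.18% ± 0.93 for BAC and 5.64% ± 2.01 for BPAC (SD, n = 4 each). With 4-HT the 4 PAC samples (8.80 to 9.39%) lay above all BAC (4.99 to 7.05%) and BPAC samples (3.29 to 8.05%), and the AC samples (5.36 and 9.60%) overlapped the others. PAC cultures 3 and 4 alone gave 8.82% ± 0.02 (SD, n = 2). Without Sis, the member with the fewest counts, the difference between the groups of genes was -1.53 in BAC, and without Alpi it was -2.38.

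**Figure D3:**
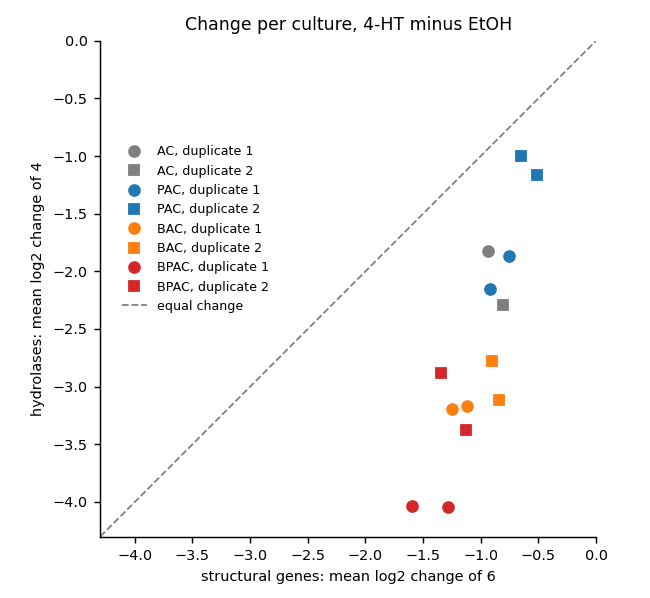
Mean log2 change of the 4 hydrolases against that of the 6 structural genes, 1 point per culture, coloured by genotype, circles for duplicate 1 and squares for duplicate 2. All 14 points lie below the dashed line of equal change, and the 8 cultures with the Braf allele have hydrolase changes of -4.04 to -2.78 against -2.29 to -0.999 in the other 6.

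In the genotypes carrying the Braf allele 5 members fell further with 4-HT than in those lacking it, 2 hydrolases and 3 structural genes, and none fell less by this test. The comparison sets the average response of the 2 genotypes carrying the Braf allele against that of the 2 lacking it. The log2 difference was -2.52 ± 0.50 for Sis (adjusted p = 0.00156), -1.54 ± 0.26 for Mep1a (adjusted p = 0.000345), -0.81 ± 0.13 for Cdhr5 (adjusted p = 0.000191), -0.57 ± 0.12 for Ush1c (adjusted p = 0.00218) and -0.56 ± 0.14 for Myo1a (adjusted p = 0.00957). Over all genes 3.55% were called lower. With donor counts summed Sis, Mep1a and Cdhr5 passed, and Ush1c and Myo1a did not (adjusted p = 0.0160 and 0.0146), against 1.63% of all genes. With PAC cultures 1 and 2 summed into 1, Myo1a alone was lost (adjusted p = 0.0118). For Dpep1 the difference of -1.23 ± 0.35 gave an adjusted p of 0.0194, and with culture as a block it passed (adjusted p = 0.000597), but not with donor counts summed (adjusted p = 0.0209).

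The remaining 4 members gave no detected difference. Alpi differed by -0.47 (95% interval -1.07 to 0.12), Cdhr2 by -0.32 (-0.67 to 0.02), Vil1 by -0.20 (-0.48 to 0.09) and Ezr by 0.12 (-0.23 to 0.46). The log2 changes of cultures with and without the allele did not overlap for Sis, Mep1a, Dpep1, Cdhr5 and Ush1c. Over all genes 4.47% were lower in every culture with the allele. Without PAC cultures 1 and 2, Sis, Mep1a, Cdhr5 and Ush1c passed and Myo1a did not (edgeR's quasi-likelihood test, adjusted p = 0.0117), against 3.05% of all genes. With culture as a block as well 7 passed, these 4 with Myo1a, Dpep1 and Cdhr2 (adjusted p = 0.00131, 0.000516 and 0.00611), against 7.37% of all genes. Cdhr2 did not pass with donor counts summed. When each of the 14 cultures was left out in turn, Cdhr5 and Mep1a passed in 14 of 14 fits, Sis in 13, Ush1c in 12 and Myo1a in 3. Only Cdhr5 and Mep1a passed without AC culture 1 or without PAC donor 1, and with Sis they were the 3 that passed without AC culture 2 or without either BAC donor. In duplicate 1 alone these 2 passed as well, and in duplicate 2 alone none did (adjusted p = 0.0101 for Mep1a and 0.0286 for Cdhr5).

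**Figure D4:**
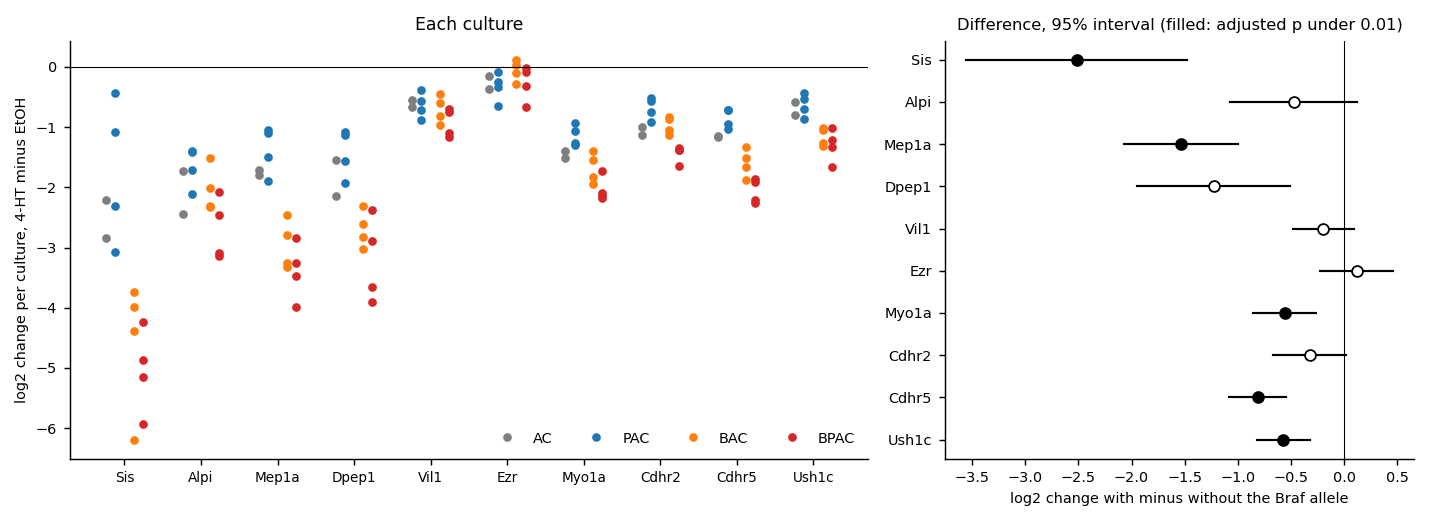
Left, log2 change of each member in every culture, coloured by genotype. Right, the change with minus without the Braf allele with its 95% interval, filled where the adjusted p was under 0.01. Changes with the allele start where those without it end for Sis (-3.73 against -3.08), Mep1a, Dpep1, Cdhr5 and Ush1c, and the intervals of Alpi, Vil1, Ezr and Cdhr2 include 0.

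The pairs of genotypes that differ only by the Braf allele gave unequal numbers of calls. Whether the differences themselves are unequal between the pairs was not tested. BPAC minus PAC was lower for the same 5 genes, with log2 differences of -3.10 ± 0.64 for Sis, -1.93 ± 0.33 for Mep1a, -1.20 ± 0.16 for Cdhr5, -0.89 ± 0.18 for Myo1a and -0.67 ± 0.15 for Ush1c (adjusted p = 0.00343, 0.000879, 0.000126, 0.00296 and 0.00601), against 1.85% of all genes. With culture as a block 8 passed, Dpep1, Cdhr2 and Alpi being added, against 4.80% of all genes. With donor counts summed these 3 did not pass (adjusted p = 0.031, 0.0771 and 0.0501), nor did Ush1c (adjusted p = 0.0273), which left 4 against 0.828% of all genes. Without PAC cultures 1 and 2 the number was also 4, against 0.843%, and in a fit of these 2 genotypes alone it was 2 (Cdhr5 and Mep1a). Leaving out either PAC donor left Cdhr5 alone. Cdhr5 and Mep1a were also the 2 that passed without BPAC culture 1, PAC culture 3, PAC culture 4 or BPAC donor 1. Without BPAC donor 2 Cdhr5, Ush1c and Myo1a did. Over the fits that leave out a culture or donor, 32 to 610 of 13519 genes were called in either direction, against 482 with all samples. The share of all genes in each of these fits, or in that of the 2 genotypes alone, is not given here.

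BAC minus AC gave no call among the 10 and 0.148% of all genes called lower. At an unadjusted p under 0.05 there were 4, all lower (Mep1a, Sis, Cdhr5 and Ush1c), against 7.23% of all genes lower, and limma-voom and DESeq2 called 0. The log2 differences were -1.93 for Sis (95% interval -3.53 to -0.33), -1.14 for Mep1a (-1.97 to -0.31), -0.90 for Dpep1 (-2.02 to 0.21), -0.47 for Ush1c (-0.85 to -0.09) and -0.43 for Cdhr5 (-0.84 to -0.02). All of these intervals but that of Dpep1 exclude 0, without adjustment for the number of genes tested, and they contain large differences. After adjustment over all genes no difference passed. AC had 2 cultures of 1 donor, so the spread between AC donors is not known. The other 5 ranged from -0.23 (Myo1a) to 0.19 (Ezr).

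No effect of the Trp53 allele on the response of a member was detected. The average response with the allele minus that without it was between -0.15 (Ezr) and -0.01 (Mep1a), with adjusted p = 1 for each member by edgeR's quasi-likelihood test, none at an unadjusted p under 0.05 (0.459% of all genes lower and 0.577% higher) and none by limma-voom or DESeq2. Over all genes 0.0148% were called. The 95% interval was -0.34 to 0.19 for Cdhr5 and -1.08 to 0.97 for Sis, so differences of the size seen with the Braf allele lay outside it for both.

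Further brush border genes were counted in both classes. Of 22 further apical hydrolases listed, 16 were among the genes counted, and 5, 9, 11 and 12 of them fell in AC, PAC, BAC and BPAC, with none higher, where 4.25%, 12.2%, 21.5% and 23.0% of all genes were called lower. Their median log2 changes were -1.02, -1.19, -1.61 and -2.08, against medians over all genes of 0.01, -0.03, -0.04 and -0.04. Of 20 further structural genes 19 were counted, and 5, 10, 10 and 13 fell. Their medians were -0.56, -0.53, -0.48 and -0.59. Without PAC cultures 1 and 2, 0 of the 16 hydrolases and 1 of the 19 structural genes fell in PAC by edgeR, with medians of -1.10 and -0.41, and 0 of the 8 colonocyte markers did. The 1 was Slc9a3r1, a scaffold that binds ezrin (-0.80, adjusted p = 0.00349), also named after its values were seen. At an unadjusted p under 0.05, 9 hydrolases, 8 structural genes and 6 colonocyte markers were lower in that fit, an alternative chosen after seeing the data, against 11.9% of all genes. A single structural gene rose, in PAC, BAC and BPAC, where 11.2%, 20.3% and 22.0% of all genes were called higher. This was Msn, which encodes moesin, the relative of ezrin in the same family, named here after its values were seen. Its change in PAC was 1.41 without those cultures and did not pass (adjusted p = 0.111).

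With the Braf allele 4 of the 16 further hydrolases fell further and none of the 19 structural genes did, against 3.55% of all genes. The 4 were Cpm, a carboxypeptidase, with a log2 difference of -1.22 ± 0.22, Xpnpep2, an aminopeptidase (-1.35 ± 0.30), Naaladl1, a peptidase (-1.76 ± 0.41), and Anpep, aminopeptidase N (-2.06 ± 0.51) (adjusted p = 0.000722, 0.00388, 0.00468 and 0.00807, edgeR's quasi-likelihood test). The median difference was -1.10 over the hydrolases and -0.15 over the structural genes, and -0.01 over all genes. Without PAC cultures 1 and 2 the first 3 passed and Anpep did not (adjusted p = 0.0196), against 3.05% of all genes lower. Whether the lists differ from each other was not tested. Of the colonocyte markers Guca2a and Guca2b, which encode guanylin and uroguanylin, fell further with the allele, with differences of -1.40 ± 0.21 and -1.65 ± 0.27 (adjusted p = 0.0001 and 0.000229).

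**Figure D5:**
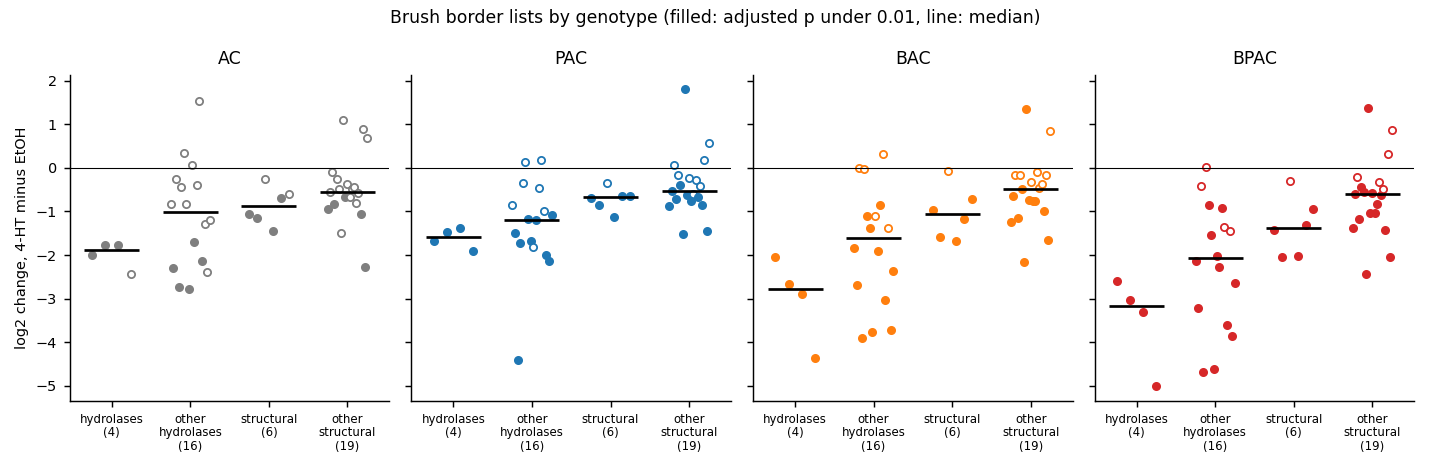
Log2 change (4-HT minus EtOH) of every counted gene of 4 brush border lists in each genotype, filled where the adjusted p was under 0.01, with a line at the list's median. The medians of the 16 further hydrolases go from -1.02 in AC to -2.08 in BPAC and those of the 19 further structural genes stay between -0.59 and -0.48.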

How the data were processed

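RNA-seq was available for 28 samples, 14 cultures of colon organoids treated with EtOH or 4-HT. The values deposited are counts, unnormalized whole numbers for each gene. Reads had been trimmed with Trimmomatic 0.39 and aligned to GRCm38 with STAR 2.5.2b per the labels; the counting program, its annotation and its strand setting are not given in the sources used here. Symbols were matched for 13479 of 13519 genes from GENCODE, and the lowest row sum was 116, so every gene passed the study's minimum (a row sum above 2).

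Counts were scaled by TMM (factors 0.885 to 0.97 for EtOH, 1.04 to 1.1 for 4-HT) and compared by the quasi-likelihood test of edgeR 4.0.16 (R 4.3.3) on 8 group means. P-values were adjusted by Benjamini-Hochberg over all genes, with the study's threshold of 0.01. The study used limma; limma-voom (limma 3.58.1), DESeq2 1.42.0, other scalings, filters and designs, and leaving out cultures or donors were alternatives. Standard errors follow from the log2 change and the F statistic. CPM per kb divides by the summed exon length. The members and lists were chosen with earlier results of these data known. All members are named; of other lists, named genes are those past the threshold for the Braf allele effect, up to 6 per brush border list, and the 5 non-members most like each mean change, of which some are not reported here. Targeted genes were named as a check, and Msn, Slc9a3r1 and the regulators after their values were seen.

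The labels give an EtOH and a 4-HT sample of each donor the same number. A sample whose label lacks the duplicate number was assigned to duplicate 1, its counterpart being labelled 2. The deviations of samples with the same number from their group means correlated in all 12 pairs of PAC, BAC and BPAC (mean r 0.516, 0.318 to 0.651). For the other duplicate of the donor the mean r was -0.0569. The numbers were therefore taken to pair the samples. For PAC cultures 1 and 2 this is not shown: each EtOH sample correlated about as well with the 4-HT sample of the other (0.313 against 0.318, and 0.468 against 0.478). The fit with culture as a block is given where it changes a call. On simulated data with 13519 genes, edgeR recovered 89% of log2 changes of 2 and 67% of 1 for the change in BAC. For BAC minus AC it recovered 72% and 27%, with 1 other gene called in each. The simulated samples were drawn independently, without effects shared within a culture or donor, so these rates do not cover that part of the design. The depth sets counting error only, since the counts carry no molecular identifiers.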

Additional observations from a re-analysis of the deposited data

Results flagged for a closer look

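The change with 4-HT differed between cultures with and without the Braf allele by a test of the difference itself for 5 members, with log2 differences of -2.52 for Sis, -1.54 for Mep1a, -0.81 for Cdhr5, -0.57 for Ush1c and -0.56 for Myo1a (edgeR's quasi-likelihood test, values and adjusted p as above).

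Of 99 groups of 4 samples or changes searched for a value far from the others, 3 held one, where chance gives about 1 in 20 groups. The Cdhr2 log2 change of BPAC culture 1 was -1.65, with the other 3 cultures at -1.38 to -1.35. Myo1a in the EtOH sample of BAC culture 4 was at 514 CPM, against 618 to 639 in the other 3. Alpi in the EtOH sample of BAC culture 3 was at 317 CPM, against 405 to 418 in the others.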

How the results depend on the processing

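No member was called in the opposite direction under any alternative, and the calls in BAC (8 or 9 of 10 with each sample set left out) and BPAC (9) were the steadiest. AC had 7 members called lower, 4 in a fit of its samples alone, 1 in duplicate 2 alone and 0 to 9 with a culture or donor left out. PAC had 9, 0 in duplicate 2 alone, 1 without its duplicate 1 cultures (5 with culture as replicate block as well, an alternative chosen after seeing the data) and 2 to 9 with a culture or donor left out. The Braf allele effect had 5, 3 with donor counts summed, 2 in duplicate 1 alone, 0 in duplicate 2 alone and 2 to 5 on leaving out. BPAC minus PAC had 5, 2 in a fit of these genotypes alone, 8 with the replicate block (8 also without the duplicate 1 cultures of PAC), 2 and 0 in duplicates 1 and 2 alone, and 1 to 7 on leaving out. BAC minus AC, the Trp53 allele effect and the EtOH levels kept 0 on leaving out. With all cultures the replicate block changed no other count by over 1.5 times. Without the duplicate 1 cultures of PAC it moved the Braf allele effect from 4 to 7. Where 1 AC culture was left, its spread was assumed to be that of the other groups; fewer samples remain in each of these fits, and causes beyond that were not tested.

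Scaling by library size alone moved the median log2 change of all genes up by 0.17 to 0.22, and with it the structural mean to -0.65 in AC, -0.49 in PAC and -1.13 in BPAC. In BAC the hydrolase mean was -2.82 as a median over members, -2.56 without Sis and -3.41 without Alpi, and hydrolase minus structural was -1.76, -1.53 and -2.38. Left-out cultures gave hydrolase means of -2.29 to -1.82 (AC), -1.73 to -1.34 (PAC), -3.16 to -3.02 (BAC) and -3.82 to -3.43 (BPAC). Thinning every sample to 20577276 counts moved none of these counts of members by over 1.5 times. Among the 4 genotypes' changes, the Braf allele effect and BAC minus AC, the sign turned only for values that passed no test: Ezr in BAC was 0.0913 with library size alone, 0.0733 in duplicate 2 alone and -0.146 to 0.0058 on leaving out, Vil1 in BAC minus AC was 0.0334 in duplicate 2 alone, and Alpi in BAC minus AC was 0.0454 by limma-voom, 0.0468 with the replicate block (0.0466 also without the duplicate 1 cultures of PAC), 0.675 in duplicate 2 alone and -0.299 to 0.41 on leaving out. Over all alternatives the genes called of 13519 ranged from 9 to 2280 in AC (980 as reported), 7 to 4960 in PAC (3166), 2698 to 7408 in BAC (5660), 2998 to 7683 in BPAC (6089), 32 to 1989 for the Braf allele effect (893), 1 to 1233 for BPAC minus PAC (482), 0 to 208 for BAC minus AC (29) and 0 to 242 for the EtOH level (4).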

Other observations

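Of 10 transcription factors listed as regulators of enterocyte and colonocyte genes, 0, 3, 4 and 5 fell with 4-HT in AC, PAC, BAC and BPAC, and none rose (edgeR's quasi-likelihood test), where 4.25%, 12.2%, 21.5% and 23.0% of all genes were called lower. Without PAC cultures 1 and 2 0 of the 10 passed in PAC. At an unadjusted p under 0.05, 2 were lower in that fit and 2 in AC, against 11.9% and 15.4% of all genes. Named after their values were seen, the 3 in PAC were Hnf4a, Klf4 and Prdm1, the 4 in BAC Cdx1, Hnf4g, Klf4 and Maf, and the 5 in BPAC Cdx1, Hnf4a, Hnf4g, Klf4 and Maf. Hnf4a, a nuclear receptor of the intestinal epithelium, changed by -0.43 in AC and PAC, -0.31 in BAC and -0.48 in BPAC, of which those in PAC and BPAC passed (adjusted p = 0.00515 and 0.000972). Cdx2, like Hnf4a described after its values were seen, gave -0.26, -0.40, 0.03 and -0.38 in AC, PAC, BAC and BPAC, none of which passed.

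The genes whose change over the 14 cultures was most like the hydrolase mean, of 9001 genes with a mean of at least 10 CPM that are not members, were Slc39a5 (Pearson r 0.98), Mettl7b, 1810065E05Rik, Slc5a8 and Lhfpl2 (0.97). Slc39a5 is a zinc transporter and Slc5a8 a sodium-coupled carrier of short-chain fatty acids. Among those most like the structural mean were Misp (r 0.97), Myo15b, Tax1bp3 and Trp53inp2 (0.96). Misp ranged from -1.13 to -0.35 over the cultures and Slc39a5 from -3.34 to -0.92. The points share donors and genotypes, so these values describe likeness and were not tested.

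Markers of other epithelial lineages were counted in the same way, and the genes named here were picked after their values were seen. Of 4 counted tuft cell genes 0, 0, 3 and 2 fell in AC, PAC, BAC and BPAC, where 4.25%, 12.2%, 21.5% and 23.0% of all genes were called lower. Their summed CPM was 9.01 to 20.7 with EtOH and 5.29 to 6.14 with 4-HT in BAC and 12.3 to 21.25 and 4.38 to 11.03 in BPAC. In AC it was 20.3 to 34.2 and 11.6 to 11.8, and in PAC, where the treatments overlapped, 6.49 to 22.45 and 11.3 to 14.2. None of the 4 passed the test of the Braf allele effect (edgeR), and at an unadjusted p under 0.05, 2 were lower in AC and 0 in PAC, against 15.4% and 23.7% of all genes.

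Of 6 goblet cell genes, Fcgbp and Tff3 fell and Agr2 and Spdef rose in both BAC and BPAC, Spdef rose in PAC, and none passed in AC. Over all genes 4.25%, 12.2%, 21.5% and 23.0% were called lower in AC, PAC, BAC and BPAC, and 3%, 11.2%, 20.3% and 22.0% higher. With the Braf allele Tff3 fell further (log2 difference -0.98, adjusted p = 0.00755) and Agr2 rose further (0.83, adjusted p = 0.00564, edgeR's quasi-likelihood test). Over all genes 3.55% were called lower and 3.05% higher in this comparison. Without PAC cultures 1 and 2 neither passed (adjusted p = 0.0388 and 0.0117), against 3.05% of all genes lower and 2.79% higher. Of 5 enteroendocrine genes 1, Pcsk1, fell in BAC and BPAC, near the 21.5% and 23.0% of all genes called lower, and none passed in AC or PAC. Of 4 counted small intestinal genes Rbp2 fell in each genotype, with log2 changes of -2.03, -2.13, -2.13 and -2.80 in AC, PAC, BAC and BPAC. Apoa1 also fell in BPAC. Over all genes 4.25%, 12.2%, 21.5% and 23.0% were called lower. The summed CPM of the 4 small intestinal genes did not overlap between treatments in any genotype, at 19.6 to 144.9 with EtOH and 6.28 to 23.4 with 4-HT over all samples. Without PAC cultures 1 and 2 none of these genes passed in PAC, where 0.192% of all genes were called lower. Rbp2 then changed by -2.23 and narrowly missed the threshold (edgeR's quasi-likelihood test, adjusted p = 0.0110).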
